A study of Homo sapiens with 4 samples.

Results

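The 5 genes described here code for parts of the mitochondrial machinery that makes ATP: Ndufs8 and Ndufv1, 2 subunits of respiratory complex I; Mrpl11 and Mrpl15, 2 proteins of the large subunit of the mitochondrial ribosome; and Acn9, an assembly factor of complex II. They were found by gene symbol among the 23698 mouse loci of the deposited tables, and each symbol matched 1 locus. The genes had been chosen by their FPKM in these same 4 libraries, so their levels and differences are a description and carry no test. FPKM, the unit of the tables, is fragments per kilobase of transcript, scaled to the mapped fragments of the library.

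The libraries came from tumours that MDA-MB-231 cells, a human triple-negative breast cancer line, formed under the skin of Balb/c nude mice, which lack a thymus. The 4 groups were caspase-3 inhibited tumours given docetaxel, caspase-3 inhibited tumours left untreated, caspase-3 efficient tumours given docetaxel and caspase-3 efficient tumours left untreated. Inhibition means that the MDA-MB-231 cells were grown in culture with Z-DEVD-FMK, a peptide inhibitor of caspase-3, and docetaxel, a taxane that stabilises microtubules, was given at 15 mg/kg to tumours of 12 mm². Each group was 1 library, so no difference below has a replicate check, and differences between animals are not covered by any interval.

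Complex I takes electrons from NADH and passes them to ubiquinone while pumping protons, and complex II feeds electrons from succinate into the same pool. Ndufv1 carries the site where NADH is oxidised, and Ndufs8 carries iron-sulfur clusters further along the electron path. Most of these subunits are encoded in the nucleus, translated in the cytosol and imported, whereas the subunits encoded by mitochondrial DNA are made inside the organelle by the mitochondrial ribosome.

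The tables list mouse loci, so the values come from the mouse host and from whatever tumour cell reads matched its genome, and the share of these was not tested. Between 1842 and 2776 loci were above 0 in a library, and values that recur at low olfactory receptor loci put depth at roughly 263000 to 497000 fragments. At that depth 3 fragments on a locus of 1 kb correspond to 11.4 FPKM in the docetaxel inhibited, 8.43 in the untreated inhibited, 6.03 in the docetaxel efficient and 7.61 in the untreated efficient library. Of 228 listed mitochondrial loci, 191 were at 0 in all 4 libraries. Ndufa4, now counted with complex IV, was kept on the complex I list and had values in all 4. The 191 include 16 of the 17 loci listed for complex IV and 16 of 17 for complex V, which every respiring cell uses. A listed 0 was therefore not read as a level.

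Ndufs8 (chromosome 19, 3908870 to 3912717 on the mouse build mm9) varied most among the members with a value in all 4 libraries, its highest level being 12.7-fold its lowest. It was at 74.6 FPKM (deposited bounds 37.2 to 112) in the docetaxel inhibited library and at 5.88 (0 to 11.6) in the untreated inhibited library. It was at 66.7 (35.5 to 83.4) in the docetaxel efficient library and at 31.4 (12.4 to 49.6) in the untreated efficient library. The untreated inhibited library thus stood below the other 3, with bounds that met none of theirs, while the other 3 overlapped one another. In rank, Ndufs8 was number 56 of 1837 loci above 0 in the docetaxel inhibited library and number 431 of 1995 in the untreated inhibited library (loci of status OK), and scaling a library by 1 factor would not change these ranks. A lower level in bulk tissue cannot be told apart from fewer cells that express the gene.

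**Figure D1:**
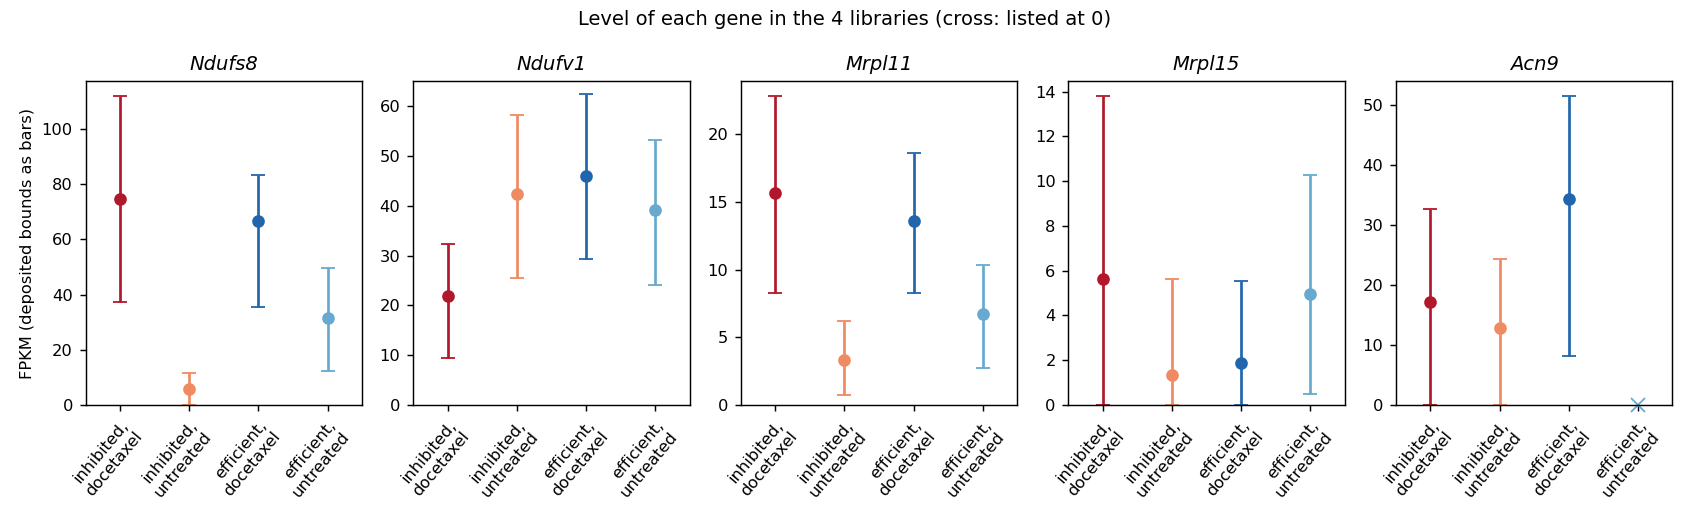
Level of each of the 5 genes (FPKM, linear axes that start at 0 and differ between panels) in the 4 libraries, with the deposited lower and upper bounds as bars and a cross where the gene is listed at 0. Ndufs8 and Mrpl11 were lowest in the untreated inhibited library (5.88 and 3.34 FPKM), whereas Ndufv1 was lowest in the docetaxel inhibited library (21.8 FPKM).

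A locus was called where the log2(FPKM + 1) values were at least 2-fold apart, the bounds of both libraries did not overlap, and the FPKM reached 5 FPKM in at least 1 of the libraries compared. In inhibited tumours Ndufs8 was called higher with docetaxel, by 3.46 on the log2 scale. The difference in level was 68.8 FPKM (95% interval 30.9 to 106, taking the deposited bounds as 95% limits). This was the highest log2 difference of the 630 loci compared, whose median was 0.37. In efficient tumours the docetaxel difference of Ndufs8 was 1.06 on the log2 scale, or 35.3 FPKM (-0.83 to 60.6), and it was not called because the bounds overlapped.

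Between untreated tumours, Ndufs8 was called lower in the inhibited than in the efficient library, by -2.24 on the log2 scale, or -25.5 FPKM (-44.7 to -5.68). It was number 24 from the lowest of 597 loci. Between docetaxel libraries the difference of the inhibited from the efficient tumour was 0.16 on the log2 scale, or 7.95 FPKM (-33.0 to 56.4), an interval that also holds a difference as large as the one between the untreated libraries. Both calls rest on the low value of the untreated inhibited library, which the comparisons share and which lay under the level that 3 fragments give on a locus of 1 kb.

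Ndufv1 (chromosome 19, 4007505 to 4012725), the NADH-binding subunit, varied less. It was at 21.8 FPKM (9.50 to 32.3) in the docetaxel inhibited library, 42.5 (25.6 to 58.3) in the untreated inhibited, 46.1 (29.3 to 62.4) in the docetaxel efficient and 39.3 (24.1 to 53.2) in the untreated efficient library. The docetaxel inhibited library was the lowest, but the bounds of all 6 pairs of libraries overlapped. Docetaxel libraries differed from untreated ones by -0.93 on the log2 scale in inhibited tumours, or -20.6 FPKM (-40.7 to -0.79), and by 0.23 in efficient tumours, or 6.84 FPKM (-15.0 to 29.2). Inhibited minus efficient, it differed by -1.05 with docetaxel, or -24.3 FPKM (-44.8 to -4.50), and by 0.11 without, or 3.19 FPKM (-18.7 to 25.2). As deposited, Ndufv1 was called in no comparison. After median scaling and after quantile normalization it was called lower with docetaxel in inhibited tumours, by -1.33 and -1.27, and its difference in efficient tumours changed sign, to -0.031 and -0.30.

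The 2 complex I subunits, which are built into the same complex, were also set against each other within each library. The FPKM of Ndufs8 over that of Ndufv1, which library scaling cannot alter, was 3.42 in the docetaxel inhibited library (1.15 to 11.8 at the widest the bounds allow), 0.14 in the untreated inhibited (0 to 0.45), 1.45 in the docetaxel efficient (0.57 to 2.84) and 0.80 in the untreated efficient library (0.23 to 2.06). The ratio of the untreated inhibited library lay outside the range of both docetaxel libraries and overlapped that of the untreated efficient library. The ranges of the docetaxel libraries and the untreated efficient library overlapped one another. The low ratio rests on the Ndufs8 value of 5.88 FPKM (0 to 11.6), under the 8.43 that 3 fragments give on a locus of 1 kb in that library.

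Mrpl11 (chromosome 19, 4962306 to 4966995), a protein of the large mitochondrial ribosomal subunit, was at 15.6 FPKM (8.29 to 22.8) in the docetaxel inhibited library and 3.34 (0.776 to 6.21) in the untreated inhibited library. It was at 13.6 (8.26 to 18.6) in the docetaxel efficient library and 6.69 (2.76 to 10.4) in the untreated efficient library. Both docetaxel libraries were higher than both untreated ones, as for Ndufs8. The bounds of the docetaxel and untreated libraries stood apart in inhibited tumours and overlapped in efficient tumours.

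Mrpl11 was called higher with docetaxel in inhibited tumours, by 1.94 on the log2 scale, or 12.3 FPKM (4.41 to 19.9). In efficient tumours the docetaxel difference was 0.92 on the log2 scale, or 6.87 FPKM (0.42 to 13.2), and the gene was not called. After median scaling that interval was -1.24 to 11.3 FPKM and after quantile normalization -1.59 to 10.7, so both then included 0. Inhibited against efficient, the difference was 0.19 with docetaxel and -0.83 without, with FPKM intervals of -6.82 to 11.0 and -7.83 to 1.51. Mrpl11 was thus not called in either comparison of inhibited with efficient tumours. Both untreated values were below what 3 fragments give on a locus of 1 kb. The fragments behind them also depend on the transcript length, which was not available, so their number is not known.

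Mrpl15 (chromosome 1, 4763279 to 4775807), another protein of the same ribosomal subunit, was the lowest member. It was at 5.61 FPKM (0 to 13.8) in the docetaxel inhibited library, 1.34 (0 to 5.63) in the untreated inhibited, 1.88 (0 to 5.54) in the docetaxel efficient and 4.98 (0.498 to 10.3) in the untreated efficient library. All bounds overlapped, and each value was below what 3 fragments give on a locus of 1 kb in its library. Docetaxel minus untreated was 1.50 on the log2 scale in inhibited tumours, or 4.27 FPKM (-2.79 to 12.6). In efficient tumours it was -1.05, or -3.10 FPKM (-8.70 to 2.69), and both libraries were under 5 FPKM. No order of the 4 libraries was detectable for Mrpl15 at this depth.

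Acn9 (chromosome 6, 6906018 to 6989220), also called Sdhaf3, helps to mature the iron-sulfur subunit of succinate dehydrogenase in yeast and Drosophila. It was at 17.2 FPKM (0 to 32.6) in the docetaxel inhibited library, 12.9 (0 to 24.4) in the untreated inhibited and 34.3 (8.11 to 51.4) in the docetaxel efficient library, and it was listed at 0 in the untreated efficient library. The 3 values above 0 overlapped in their bounds. Acn9 was called higher with docetaxel in efficient tumours, but against a listed 0, so no fold and no difference in level is given. In inhibited tumours docetaxel minus untreated was 0.39 on the log2 scale, or 4.32 FPKM (-16.4 to 24.4). Inhibited minus efficient with docetaxel was -0.96, or -17.1 FPKM (-41.3 to 13.3).

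The docetaxel efficient library, where Acn9 was highest, also had the highest summed level of 10 adipocyte markers, at 429 FPKM against 11.6 to 12.6 in the other 3. Retn, the mouse adipocyte hormone gene, made up 417 of these. Cidea, a lipid droplet protein and the only listed adipocyte marker above 0 in all 4 libraries, was at 12.4 FPKM in the docetaxel inhibited, 11.6 in the untreated inhibited, 9.76 in the docetaxel efficient and 2.07 in the untreated efficient library, and so was not highest where Acn9 was. Of the list, 7 of the 10 markers, Adipoq and Fabp4 among them, were listed at 0 in all libraries. Erythroid loci summed to 427 FPKM in the docetaxel inhibited, 935 in the untreated inhibited, 1766 in the docetaxel efficient and 207 in the untreated efficient library, all of it alpha globin, and the beta globin loci were listed at 0. The part of fat or blood in the Acn9 values was not tested.

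Counted over the members, 2 of 5 compared were called higher and none lower with docetaxel in inhibited tumours, where 3.81% of all 630 loci were called higher. In efficient tumours 1 of 4 compared, Acn9, was called higher, against 8.1% of 667 loci. Inhibited against efficient, 1 of 4 was called lower in untreated tumours, against 3.35% of 597 loci, and 0 of 5 were called in docetaxel tumours, against 13.3% of 701 loci called in either direction. The members were chosen with these comparisons known, so their shares are not evidence about the group. The median log2 difference over the 5 members, the listed 0 of Acn9 included, was 1.50 for docetaxel in inhibited and 0.92 in efficient tumours, beside 0.37 and 0.34 over all loci compared. For inhibited minus efficient it was 0.16 with docetaxel and -0.83 without, beside -0.05 and -0.09. These member medians also hold Mrpl15 where it was under 5 FPKM and not compared. That was so for docetaxel in efficient tumours (-1.05) and for inhibition in untreated tumours (-1.35), so these 2 medians are not like for like.

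The calls over all loci leaned differently under other scalings, which moved the median of the loci compared to 0.0023 (median scaling) or 0.063 (quantile normalization), against 0.37 as deposited, for docetaxel in inhibited tumours. For docetaxel in inhibited tumours they were 24 higher and 11 lower as deposited, 12 and 19 after median scaling and 15 and 18 after quantile normalization. For docetaxel in efficient tumours they were 54 and 6, then 37 and 14, and 36 and 18. The calls of Ndufs8 and Mrpl11 held under both scalings, with log2 differences of 3.08 and 3.09 for Ndufs8 and 1.58 and 1.67 for Mrpl11 in inhibited tumours.

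**Figure D2:**
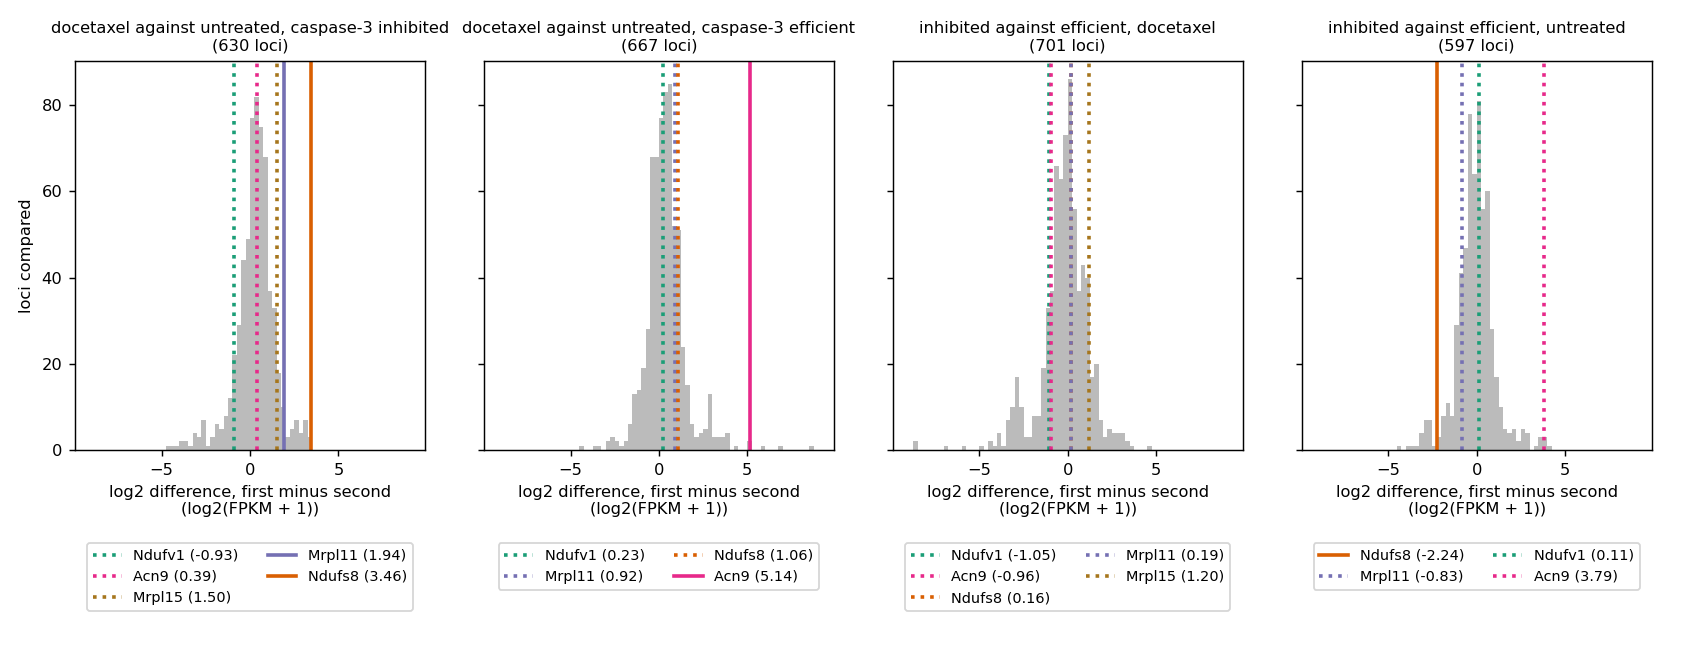
Distribution of log2 differences (log2(FPKM + 1), first-named minus second-named group) over all loci compared in each comparison, with the members as vertical lines, solid where called and dotted where not. Ndufs8 lay at the right edge for docetaxel in inhibited tumours (3.46) and at -2.24 for inhibition in untreated tumours; the line of Acn9 in the panels with untreated efficient tumours is against a listed 0.

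The docetaxel differences of the 2 kinds of tumour were then set against each other. The inhibited minus the efficient docetaxel difference was 2.40 on the log2 scale for Ndufs8, 1.02 for Mrpl11, 2.55 for Mrpl15 and -1.16 for Ndufv1. In FPKM it was 33.5 for Ndufs8 (-12.0 to 85.6), 5.40 for Mrpl11 (-4.71 to 15.4), 7.37 for Mrpl15 (-1.76 to 17.4) and -27.5 for Ndufv1 (-57.5 to 2.02). Each of these intervals includes 0, so a docetaxel response that differs between inhibited and efficient tumours was not detectable for these 4 genes in FPKM. On the log2 scale Ndufs8 and Mrpl15 passed a difference of 2, as did 7.1% of 775 loci in that direction, and Acn9 passed it in the other direction, as did 9.55%, against its listed 0. With a pseudocount of 5 the values of Ndufs8 and Mrpl15 were 1.90 and 1.28, both under 2.

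Among the other genes of the respiratory chain and the mitochondrial ribosome, 22 of 160 loci were above 0 in any library, 7 of them in all 4. None was called in any of the 4 comparisons, of 6 to 9 loci compared in each. Their median docetaxel difference was -0.39 on the log2 scale over 8 loci in inhibited tumours, 4 of them positive, beside 0.37 over all loci. In efficient tumours it was -0.19 over 7 loci, 3 of them positive, beside 0.34. The 8 include a locus at 5.10 FPKM untreated that was listed at 0 with docetaxel, so the sign of their median is not read as a result. The 3 called members were not joined by a further called gene of these complexes. Over all loci compared, the shares called higher or called lower ranged from 0.9% to 9.27%. At these shares the lack of a call among so few loci is no result about the complexes.

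The highest was Ndufa4, first assigned to complex I and now counted with cytochrome c oxidase, at 196 FPKM in the docetaxel inhibited, 170 in the untreated inhibited, 373 in the docetaxel efficient and 206 in the untreated efficient library. Uqcr10, a small subunit of complex III, was almost level at 188, 150, 187 and 175 FPKM in the same libraries. For both genes the deposited FPKM exceeded its own upper bound in 2 libraries, so the bounds of these short genes cannot be taken at face value. Among the members, the bounds of Ndufs8 (66.7 FPKM, 35.5 to 83.4) and Acn9 (34.3, 8.11 to 51.4) in the docetaxel efficient library held the value but reached farther below it than above. Intervals and overlaps of these 2 genes that use that library, and the call of Acn9, rest on such bounds. Mrpl43, of the large ribosomal subunit, was at 35.5, 35.4, 18.5 and 25.6 FPKM, and Mrps24, of the small subunit, at 11.1, 25.0, 25.5 and 14.9 FPKM. Neither follows the order of Mrpl11 over the libraries.

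In related pathways, 3 of 18 loci of the citric acid cycle had values. Cs, citrate synthase, was at 13.7 FPKM (6.34 to 20.1) in the docetaxel inhibited library, 1.70 (0 to 3.95) in the untreated inhibited, 2.31 (0.526 to 4.21) in the docetaxel efficient and 3.03 (0.704 to 5.63) in the untreated efficient library. It was called higher with docetaxel in inhibited tumours, and higher in inhibited than in efficient tumours under docetaxel. Ogdh, a subunit of the 2-oxoglutarate dehydrogenase complex, was at 8.85 FPKM (4.19 to 14.0) in the docetaxel inhibited and 19.2 (14.7 to 23.6) in the docetaxel efficient library and was called lower in the inhibited one. Its paralog Ogdhl was at 9.20 (4.33 to 14.7) against 0.930 (0 to 2.16) and was called higher, so the 3 did not move one way. Timm44, of the mitochondrial import motor, was at 18.9, 19.8, 24.3 and 17.7 FPKM and was not called, and Gabpa and Nrf1, transcription factors of respiratory genes, stayed under 5 FPKM throughout.

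**Figure D3:**
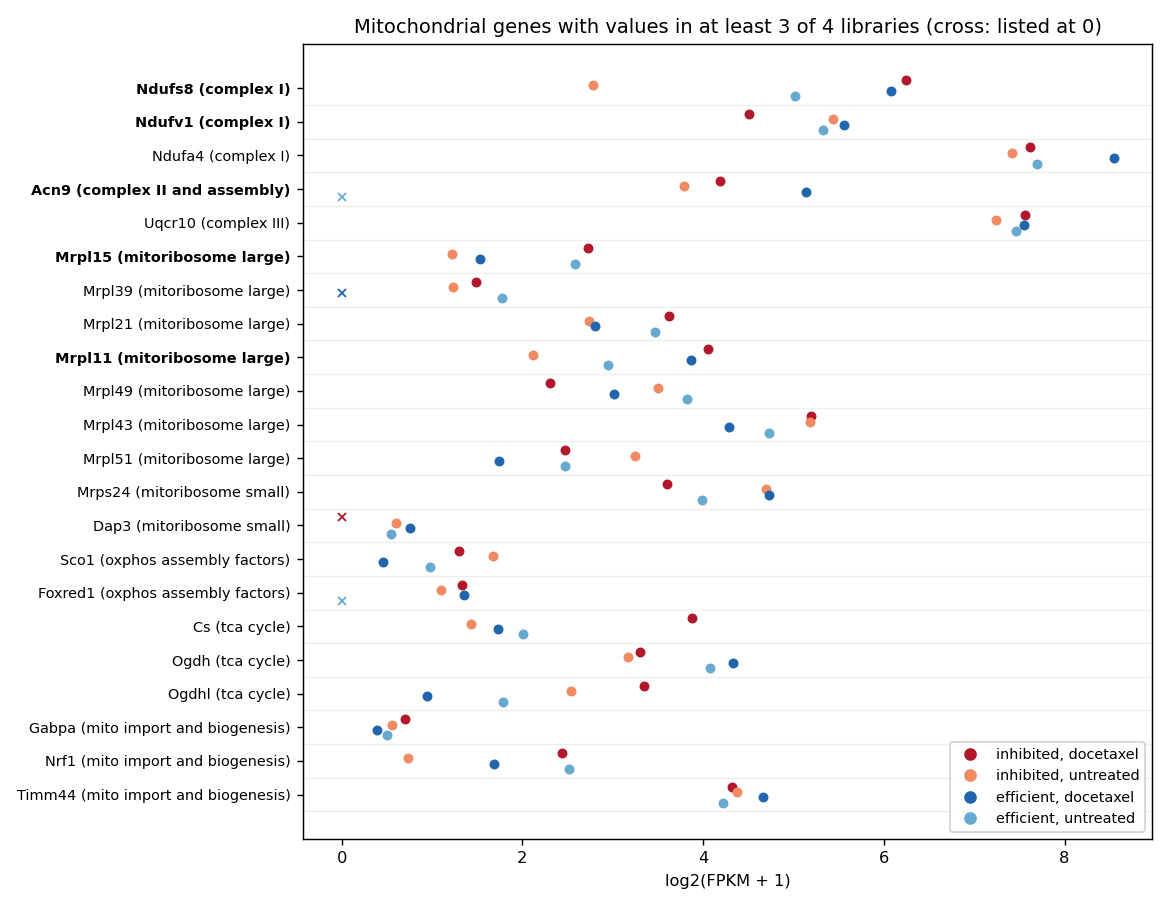
Level (log2(FPKM + 1)) of the 22 listed mitochondrial loci above 0 in at least 3 libraries, 1 row per gene with its list, members in bold and the 4 libraries by colour, with a cross for a listed 0. The wide gap of the untreated inhibited library in the Ndufs8 row (5.88 FPKM, against 31.4 to 74.6 in the others) is not seen in the rows of Ndufv1, Ndufa4 or Uqcr10. Ndufa4 (170 FPKM, against 196 to 373) and Uqcr10 (150, against 175 to 188) were nonetheless also lowest in that library. So were other rows, among them Mrpl11, Mrpl15, Mrpl21, Cs, Ogdh and, at a low level, Nrf1 (0.661 FPKM, against 2.23 to 4.71 in the others).

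The members share a position that is not particular to them. All lie near the start of a chromosome, between 3.91 and 6.91 Mb, where many neighbouring loci also had values. Ndufs8, Ndufv1 and Mrpl11 are the 13th, 22nd and 66th of 759 loci on chromosome 19, Mrpl15 is the 4th of 1292 on chromosome 1 and Acn9 the 30th of 1245 on chromosome 6. Of up to 20 nearest loci on each side, 65.6% around Ndufs8, 70.0% around Ndufv1, 60.0% around Mrpl11, 30.4% around Mrpl15 and 57.5% around Acn9 had a value above 0 in 3 or all 4 libraries. Over all 23698 loci the share was 6.73%. Values were thus unevenly placed along the chromosomes, and 138 of the 160 other loci of the respiratory chain and mitochondrial ribosome were listed at 0 in every library.

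No other locus overlapped a member, and among the nearest locus on either side of each member only Tcirg1 was called in any comparison. Ndufs8 and Ndufv1 are 94.8 kb apart with 8 loci between them. The nearest locus before Ndufs8, Tcirg1, a subunit of the vacuolar proton pump that ends 1736 bp from it, was at 89.0 FPKM (68.1 to 111) in the docetaxel inhibited and 43.3 (30.3 to 56.4) in the untreated inhibited library, and was itself called higher, by 1.02. Between untreated tumours it was at 43.3 FPKM (30.3 to 56.4) in the inhibited and 76.1 (60.8 to 92.1) in the efficient library. These bounds stood apart, in the same direction as for Ndufs8, but the difference of -0.80 on the log2 scale was under 2-fold, so it was not called. Aldh3b1, the nearest locus on either side, which begins 773 bp after Ndufs8, was at 11.6 FPKM (3.26 to 19.6) against 12.4 (4.88 to 19.5) and was not called. Whether counting used the strand is not stated in the labels, and the share of reads from neighbouring transcripts was not tested.

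Over the stretch of chromosome 19 from 800 kb before Ndufs8 to 500 kb after Mrpl11, 51 of 92 loci entered each of the 2 comparisons in which Ndufs8 was called, members included. With docetaxel in inhibited tumours 4 were called higher and 1 lower, with a median of 0.09 on the log2 scale, and in untreated tumours 2 were called higher and 1 lower in the inhibited library, with a median of -0.20. Ndufs8 and Mrpl11 are among the 4 called higher, and the 1 called lower in untreated tumours is Ndufs8 itself. Ndufs8 had the largest difference of the 51 in both comparisons. The stretch was drawn around it, and with docetaxel in inhibited tumours it was already the highest of all 630 loci, so its place here is no separate result. The medians over all loci compared were 0.37 and -0.09.

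**Figure D4:**
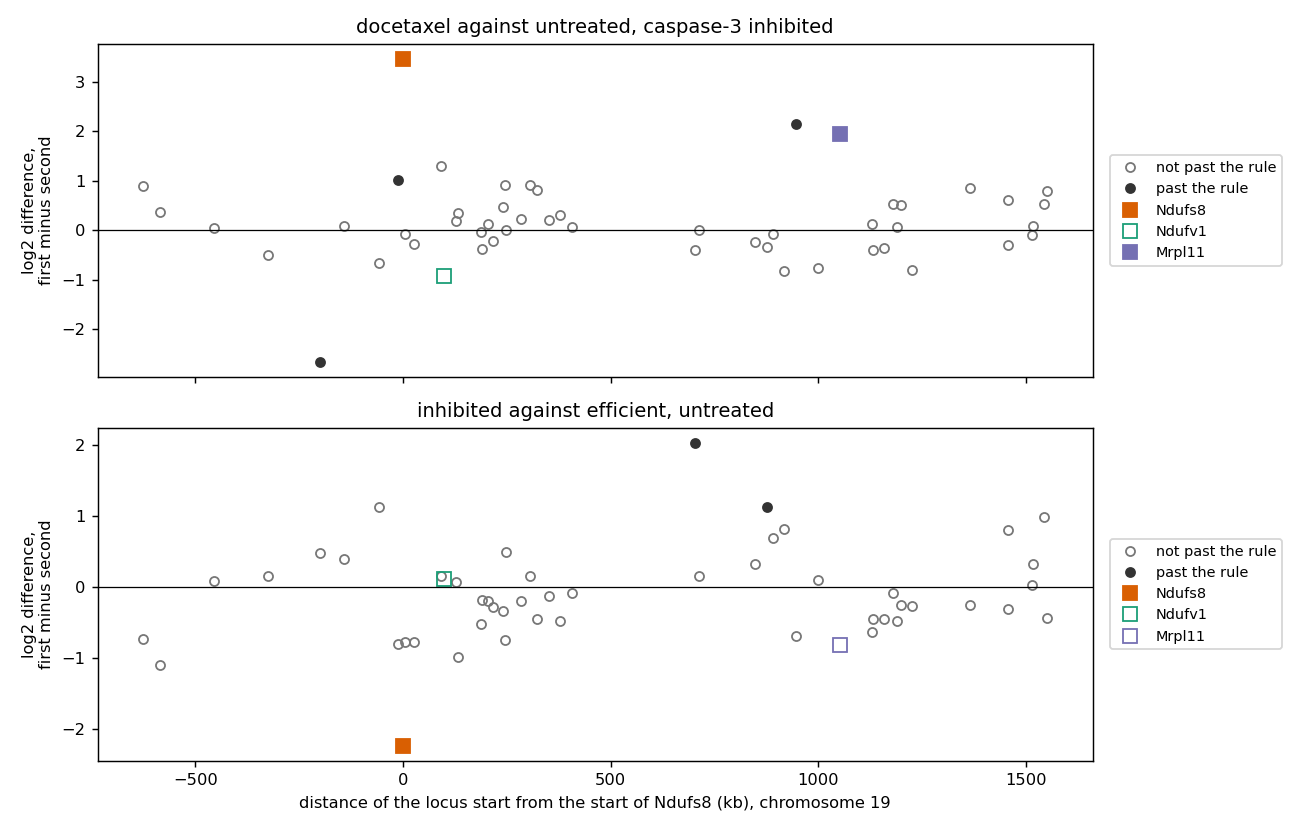
Log2 difference (log2(FPKM + 1), first-named minus second-named group) of each locus compared on chromosome 19, by the distance of its start from the start of Ndufs8 in kb, with members as squares and filled symbols for called loci. Ndufs8 stands at 3.46 (upper panel) and -2.24 (lower panel), and the median of the stretch is 0.09 and -0.20.

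The loci most like each member over the 4 libraries were sought among loci above 0 in all of them, by the Euclidean distance of log2(FPKM + 1) profiles centred on their means, with 591 candidates for each member and 592 for Acn9. For Ndufs8 they were Sgce, a sarcoglycan gene, at a distance of 0.88, Etf1, a translation termination factor, at 0.92, and the stromelysin gene Mmp3 at 0.93, while Mrpl11 was number 9 and Ndufv1 number 496. For Mrpl11 they were the lysosomal protease gene Ctsf at 0.28, which lies 101 kb away, Mmp3 at 0.37 and Ttll3, a tubulin glycylase, at 0.42. For Ndufv1 they were Psap, the saposin precursor gene, at 0.08, Zmiz2 at 0.19 and Gas7 at 0.21, so the 2 complex I subunits had different neighbours by this measure. For Mrpl15 they included Trappc5 at 0.30 and Shcbp1 at 0.35. For Acn9, whose profile holds a listed 0, they were Asns, the asparagine synthetase gene, at 2.20, the alpha globin locus Hba-a1 at 2.24 and the adipocyte marker Cidea at 2.38, all farther off than those of the other members. With 4 libraries such distances describe these libraries only.

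Markers of other cells gave few values to set beside the complex I genes. The fibroblast and matrix list summed to 579 FPKM in the docetaxel inhibited, 371 in the untreated inhibited, 515 in the docetaxel efficient and 369 in the untreated efficient library, nearly all from Col1a2, a type I collagen chain, so it was higher in both docetaxel libraries, as were Ndufs8 and Mrpl11, though Col1a2 was not called. Among 9 listed markers of fibroblasts, 6 were at 0 in all libraries. The endothelial list summed to 0.734 to 3.30 FPKM, the macrophage list to 0.293 to 0.584, and the epithelial list to 11.0 to 22.6, most of it Vim, with Epcam, Krt8 and Krt18 listed at 0. All 10 skeletal muscle and all 6 keratinocyte markers were listed at 0. The part of cell composition in the Ndufs8 and Mrpl11 values was not tested.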

How the data were processed

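RNA of 4 xenograft tumours, 1 per group, was sequenced on a MiSeq after ribosomal RNA depletion, per the labels. Per the submitters' processing notes the authors used TopHat and Cufflinks with the mouse build mm9, without versions. The deposited tables hold FPKM, its lower and upper bounds and a status per locus, per the file headers. Rows were matched between tables by symbol and position, since their order differs, and start positions were raised by 1. The 285 loci with the status LOWDATA in a library were left out.

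Differences were taken on the log2(FPKM + 1) scale, where those of low genes come out too small, and in FPKM with an interval that combines the deposited bounds, taken as 95% limits, by the square root of their summed squared half-widths. A call needed a 2-fold difference, bounds that did not overlap, status OK and 5 FPKM in at least 1 library. No p-value exists with 1 library per group. Depth was estimated from values recurring within 3% at olfactory and vomeronasal receptor loci of 850 to 1150 bp, resting on 3 to 7 loci, so fragment numbers are rough. Intervals cover the authors' estimation error only.

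The members and gene lists were chosen with earlier results of these data known. Genes named besides the members were pathway genes that were called or reached 20 FPKM, the loci next to members, the 3 loci most like each member (1 of them is not reported here), and markers by value; Gabpa and Nrf1 were added after their values were seen. The calls and intervals were checked on simulated counts, with 1 assumed FPKM per fragment and bounds built from those counts. The deposited bounds were not simulated. How often an interval held the true difference was scored only for loci above a minimum mean level. The check therefore does not show how the deposited bounds perform at low values. Alternatives were pseudocounts of 0.1 and 5, a minimum of 1 or 20 FPKM or none, a 3-fold threshold, median scaling over 342 loci, calls without the interval criterion, quantile normalization, and loci above 0 in both libraries. No mouse sequence was used here. Python 3.11.15, numpy 2.4.6, pandas 2.3.3 and matplotlib 3.10.9 were used.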

Additional observations from a re-analysis of the deposited data

Results flagged for a closer look

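For 2 members the docetaxel library was on opposite sides of its untreated library in the 2 kinds of tumour. Ndufv1 was at 21.8 against 42.5 FPKM in inhibited tumours and at 46.1 against 39.3 in efficient tumours, each time docetaxel against untreated, and the difference of these differences was -1.16 on the log2 scale. Mrpl15 was at 5.61 against 1.34 FPKM in inhibited tumours and at 1.88 against 4.98 in efficient tumours, a difference of differences of 2.55. With 1 library per group the difference was not tested, the bounds of the docetaxel and untreated libraries overlapped in each of these pairs, and the sign of Ndufv1 in efficient tumours turned with scaling.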

How the results depend on the processing

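The calls of Ndufs8 (higher with docetaxel in inhibited tumours, lower with inhibition in untreated tumours) held under all 10 alternatives, with log2 differences of 2.87 to 3.64 and -2.40 to -1.74. Not all of these could have removed a call. A lower or no minimum and calls without the interval criterion only loosen the rule. The 3-fold threshold, the 20 FPKM minimum and values above 0 in both libraries were already met by the deposited values of Ndufs8. Every alternative also reuses the same low value of the untreated inhibited library. The call of Mrpl11 held wherever it was compared (1.31 to 2.19), and it never reached the minimum of 20 FPKM. Without the interval criterion 2 of 4 members were called for docetaxel in efficient tumours, against 187 of 667 loci. For docetaxel in inhibited tumours 3 of 5 were called, against 184 of 630 loci. Inhibition gave 2 of 4 in untreated tumours, against 142 of 597 loci, and 2 of 5 under docetaxel, against 240 of 701. With loci above 0 in both libraries 0 of 3 were called in efficient tumours, against 39 of 628. With 20 FPKM 1 of 2 was called in inhibited tumours, against 13 of 189. Ndufv1 in efficient tumours reversed to -0.031 (median scaling) and -0.30 (quantile normalization), and Acn9 in inhibited tumours to -0.025 (quantile normalization); the cause was not tested.

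Over all loci, in the order docetaxel in inhibited (35 called), docetaxel in efficient (60), inhibition under docetaxel (93) and inhibition in untreated tumours (35), the calls without the interval criterion were 184, 187, 240 and 142, and with 20 FPKM 13, 25, 40 and 12. With a minimum of 1 FPKM or none they were 91 for docetaxel in efficient tumours, 142 for inhibition under docetaxel and 53 in untreated tumours, and with loci above 0 in both libraries 39, 56 and 23. Loci with a difference of differences of 2 numbered 129, and 21 with a pseudocount of 5. No paired analysis was possible because each group is 1 library. Depth limits Mrpl15 and the untreated values of Mrpl11.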
